A study of Caenorhabditis elegans with 10 samples.

Results

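A set of 4 ribosome footprint libraries of growing Caenorhabditis elegans larvae was compared as a pair of repeats of the same 2 h step: 24 h against 22 h, and 32 h against 30 h after hatched first-stage larvae were put on food. They are 4 of the 10 libraries of the time course and were chosen by their time alone, because the moulting cycle described in this study lasts 8 h, so that 30 h repeats 22 h and 32 h repeats 24 h. Ribosome footprints are short mRNA pieces that a translating ribosome shields from nuclease. All worms were whole animals of N2, the standard wild-type strain, fed without interruption on NA22 bacteria. There was 1 library per time, with 16723638 counts at 24 h and 22079848 counts at 32 h, against 24155948 counts at 22 h and 17248486 counts at 30 h. Of 20182 genes in the table, 13132 were tested, and 99 were switched on and 158 switched off in both repeats.

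Worms shed their cuticle at each moult and build the next one beneath it. The epidermis first lays down a temporary apical matrix of lipocalin-related and zona pellucida-domain proteins, then secretes collagens in a set order, with the furrow collagens that mark the rings of the body surface early in that order. The pharynx, the feeding organ, replaces its own lining, which is made of chitin and of small disordered proteins rather than of collagen.

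Levels below are CPM, counts scaled to a library of 1000000 with TMM factors, and changes are on the log2 scale. A gene was called when edgeR's quasi-likelihood test, fitted to the 4 libraries with the pair as a block, gave a Benjamini-Hochberg adjusted p under 0.05 and the gene moved by at least 1 log2 the same way in each repeat. Switched means called, moved by at least 3 log2 in each repeat, and at 10 CPM or more on the high side of both. Footprints of whole worms cannot tell a change in mRNA from a change in translation, nor fewer cells of a type from less RNA per cell. The labels do not say whether separate cultures gave the libraries. The p-values therefore rest only on the spread between repeats that are 8 h apart, with information on that spread shared over all tested genes.

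Most genes moved by less than 1 log2 over the step. The median gene changed by 0.02 log2 from 30 h to 32 h and by 0.00 log2 from 22 h to 24 h, and 80.9% and 82.6% of tested genes moved by less than 1 log2 in those repeats. A total of 626 genes were called higher at 24 h and 32 h, which is 4.77% of those tested, and 839 were called lower, which is 6.39%. The switched sets are smaller, at 0.754% of tested genes for the 99 switched on and 1.20% for the 158 switched off. Across genes the changes of the repeats had a Pearson correlation of 0.798 and a Spearman correlation of 0.681 over 13132 genes, which are not independent of each other, and 75.1% of genes moved the same way.

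The number of calls rested on having all 4 libraries. In the 3-library fits below, a call used the fitted change and the direction of the pair left whole, not the change in each repeat. With no pair term, leaving out the 32 h library sets 24 h against 22 h and 30 h together, which is not a 2 h change. With 3 libraries and no pair term, a fit in which the lone library of a group is taken to vary like the others, no gene was called without the 22 h library (1623 had an unadjusted p under 0.05). Without the 30 h library 47 genes were called higher and 111 lower, without the 24 h library 131 and 153, and without the 32 h library 288 and 339. Of the 80 called genes given with values here, all lost the call without the 22 h library, 48 without the 30 h library and 32 without the 24 h library, and without the 32 h library 12 lost it and 3 (bli-1, vit-2 and lin-29) turned in direction. The 80 are called genes named by rule, so nas-36 and nas-37, picked later, are not among them. Fitting the 4 libraries without the pair as a block gave 274 higher and 405 lower calls, yet 94 genes switched on and 135 off.

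**Figure D1:**
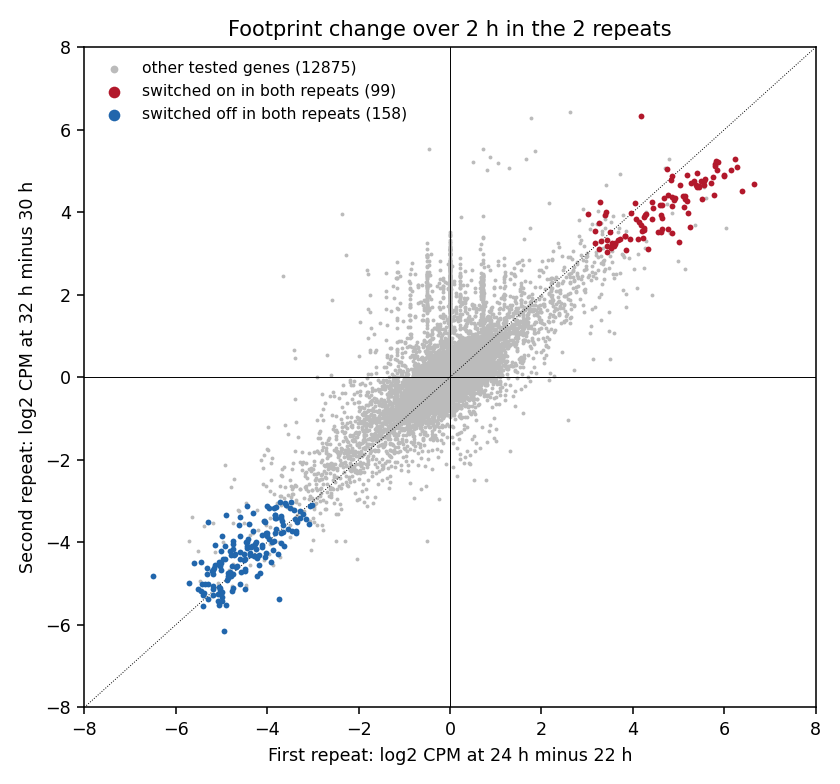
Change of log2 CPM of each of 13132 tested genes from 30 h to 32 h (vertical axis) against that from 22 h to 24 h (horizontal axis), with equal change on the dotted line. The 99 genes switched on (red) lie at the upper right, most of them below the line, and the 158 switched off (blue) at the lower left.

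The furrow collagens were switched on as a whole. All 6 collagens of this list, each needed for the ringed furrows of the cuticle, stood at 251 to 895 CPM at 24 h and 32 h, against 6.43 to 15.4 CPM at 22 h and 30 h. The median change of the 6 was 4.97 log2 from 30 h to 32 h and 5.99 log2 from 22 h to 24 h. All tested genes had medians of 0.02 and 0.00 log2 over the same steps. Together the 6 genes held 3605 CPM at 24 h and 2379 CPM at 32 h, against 57.3 CPM at 22 h and 76.0 CPM at 30 h.

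Within the list dpy-7 (WBGene00001069) stood at 632 CPM (24 h) and 457 CPM (32 h), against 9.87 CPM at 22 h and 15.4 CPM at 30 h. Both later libraries were far above both earlier ones, with a fitted change of 5.45 ± 0.36 log2 (SE, 2 pairs; edgeR adjusted p = 0.00148). The furrow collagen dpy-3 (WBGene00001065), which had the highest level of the 6 per kilobase of coding length, reached 895 CPM (24 h) and 522 CPM (32 h), against 11.4 CPM at 22 h and 15.1 CPM at 30 h. Its change was 5.71 ± 0.39 log2 (edgeR adjusted p = 0.00225). The gene dpy-8 (WBGene00001070) gave 460 and 251 CPM at 24 h and 32 h, against 6.43 and 7.56 CPM at 22 h and 30 h. For dpy-2 (WBGene00001064), dpy-9 (WBGene00001071) and dpy-10 (WBGene00001072) the fitted changes were 5.48, 5.15 and 5.44 log2. Per kilobase of coding length at 24 h the furrow collagens ran from 339 CPM (dpy-8) to 988 CPM (dpy-3).

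Most genes of the temporary apical matrix rose with them. Of 17 tested members of this list 14 were called higher, 11 of them switched on, and 1 was lower, or 82.4% and 5.88%, beside 4.77% and 6.39% of all tested genes. The list's median change was 3.57 log2 from 30 h to 32 h and 4.24 log2 from 22 h to 24 h, beside 0.02 and 0.00 log2 for all tested genes. The 11 switched on were noah-1, noah-2, fbn-1, lpr-1, lpr-3, lpr-4, lpr-5, lpr-6, sym-1, egg-6 and mlt-11, of which those outside the naming rule are given here to complete the count.

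The zona pellucida-domain gene noah-1 (WBGene00016422) stood at 3856 CPM (24 h) and 2535 CPM (32 h), against 132 CPM at 22 h and 122 CPM at 30 h. The fitted change was 4.62 ± 0.16 log2 (edgeR adjusted p = 6.71e-07). A Kunitz-domain gene of the moult, mlt-11 (WBGene00012186), stood at 3704 CPM (24 h) and 2397 CPM (32 h), against 78.8 CPM at 22 h and 95.02 CPM at 30 h. The lipocalin-related lpr-3 (WBGene00012261) reached 2368 CPM (24 h) and 1752 CPM (32 h), against 49.5 CPM at 22 h and 62.3 CPM at 30 h, a change of 5.20 ± 0.23 log2 (edgeR adjusted p = 3.22e-05). In these 3 genes, as in all 99 switched on, the later libraries of both repeats were above the earlier ones by the rule that chose them. The related lpr-4 (WBGene00012257) changed by 5.57 ± 0.20 log2 and lpr-5 (WBGene00012256) by 5.06 ± 0.18 log2. In the Ensembl 115 annotation, lpr-3, lpr-6, lpr-5 and lpr-4 form a run of 4 with no other protein-coding gene between them, and they make up all 4 of the switched-on genes with a neighbour switched the same way (4.17% of the 96 in the annotation, beside 1.17% of tested genes with a switched-on neighbour).

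The member that went the other way was mup-4 (WBGene00003497), a transmembrane protein that links the epidermis to the cuticle. It fell to 92.1 CPM at 24 h and 74.9 CPM at 32 h, against 659 CPM at 22 h and 735 CPM at 30 h (-3.07 ± 0.15 log2, edgeR adjusted p = 2.61e-06). A related attachment gene, mua-3 (WBGene00003482), rose to 2010 CPM at 24 h and 1957 CPM at 32 h, against 387 CPM at 22 h and 541 CPM at 30 h. Epidermal attachment genes, a list that also holds mup-4, had 2 of 15 tested members higher (13.3%, beside 4.77% of all tested genes) and 1 lower (6.67%, beside 6.39% of all). The medians of that list were 0.25 log2 from 30 h to 32 h and 0.20 log2 from 22 h to 24 h.

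**Figure D2:**
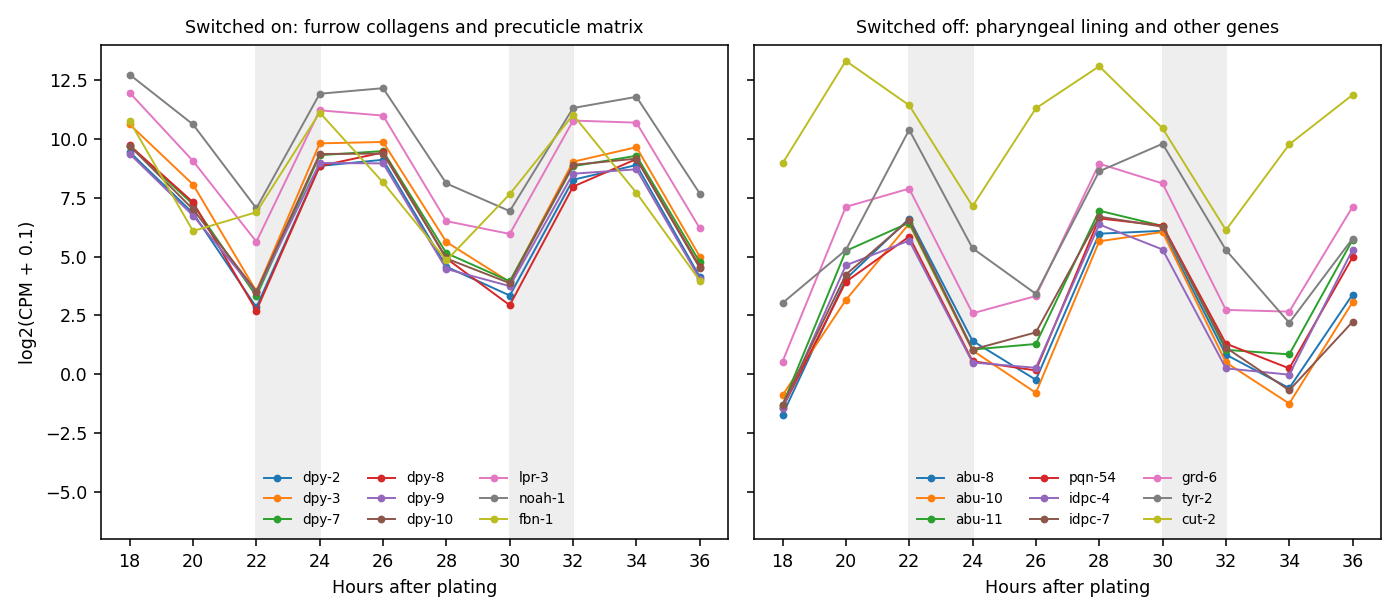
Level of 9 genes switched on (left) and 9 switched off (right) as log2(CPM + 0.1) in the 10 libraries from 18 h to 36 h, with the 2 h steps from 22 h and 30 h shaded. Genes on the left climb through each shaded band and genes on the right drop; fbn-1 and cut-2 are already moving in the 2 h before or after the band.

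Outside these lists the largest rises included 3 further collagens. Collagen col-149 (WBGene00000722) was at 1920 CPM (24 h) and 2403 CPM (32 h), against 34.3 CPM at 22 h and 66.3 CPM at 30 h. It was briefer than the furrow collagens, with 331 CPM at 26 h and 631 CPM at 34 h. Collagens col-128 (WBGene00000702) and col-46 (WBGene00000623) changed by 5.93 ± 0.25 and 5.69 ± 0.57 log2 and reached 70.6 CPM and 80.2 CPM at 24 h. Another gene switched on was dao-2 (WBGene00000928), at 4535 CPM (24 h) and 2869 CPM (32 h), against 117 CPM at 22 h and 110 CPM at 30 h. Per kilobase of coding length dao-2 stood at 11120 CPM at 24 h, col-149 at 2155 CPM, lpr-3 at 1387 CPM, noah-1 at 1222 CPM and mlt-11 at 395 CPM.

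The cuticle collagens as a family did not move together. Of 118 tested col genes 19 were called higher, 3 of them switched on, and 49 lower, 17 of them switched off, or 16.1% and 41.5%, beside 4.77% and 6.39% of all tested genes. Their median change was -0.96 log2 from 30 h to 32 h and -1.18 log2 from 22 h to 24 h, beside 0.02 and 0.00 log2 for all genes. Footprints of col-107 (WBGene00000681) fell to 158 CPM at 24 h and 307 CPM at 32 h, against 2551 CPM at 22 h and 4166 CPM at 30 h. Footprints of ram-2 (WBGene00004300), a ray morphology gene outside the list, fell to 157 CPM at 24 h and 282 CPM at 32 h, against 2228 CPM at 22 h and 3822 CPM at 30 h. The collagen col-77 (WBGene00000653) dropped to 21.7 CPM at 24 h and 101 CPM at 32 h, against 468 CPM at 22 h and 1534 CPM at 30 h.

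Other body-shape collagens were mixed in size as well as direction. On that list 7 of 12 tested genes rose, 1 of them switched on, and 1 fell (58.3% and 8.33%, beside 4.77% and 6.39% of all tested genes). Its medians were 1.81 log2 from 30 h to 32 h and 2.17 log2 from 22 h to 24 h. The gene lon-3 (WBGene00003057), a collagen that limits body length, rose to 160 CPM at 24 h and 133 CPM at 32 h, against 11.3 CPM at 22 h and 17.5 CPM at 30 h. It went on to 1176 CPM at 26 h and 1555 CPM at 34 h. The member that fell, dpy-5 (WBGene00001067), dropped to 509 CPM at 24 h and 321 CPM at 32 h, against 1433 CPM at 22 h and 1507 CPM at 30 h, and stood at 6772 CPM at 26 h. Its fitted change was -1.86 log2, with a range of -2.58 to -1.21 log2 when 1 library was left out.

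A pair of collagens that form struts of the adult cuticle rose mainly in the second repeat. For bli-2 (WBGene00000252) the level was 244 CPM at 32 h, against 2.94 CPM at 30 h, and 10.4 CPM at 24 h, against 0.497 CPM at 22 h. For bli-1 (WBGene00000251) it was 394 CPM at 32 h, against 4.46 CPM at 30 h, and 0.879 CPM at 24 h, against 0.0710 CPM at 22 h. Both were called, but bli-1 changed by 2.62 log2 and did not reach 10 CPM in the first repeat and so is not among the switched genes. Without the 32 h library its fitted change of 6.36 log2 became -1.35 log2, and that of bli-2 was 2.63 log2 in place of 5.89 log2. That fit sets 24 h against 22 h and 30 h together.

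Enzymes that fold and cross-link collagen changed by smaller amounts. Of 17 tested 4 rose (23.5%, beside 4.77% of all tested genes) and 5 fell (29.4%, beside 6.39% of all), with 1 switched off. The medians were 0.31 log2 from 30 h to 32 h and 0.06 log2 from 22 h to 24 h. The thioredoxin-like dpy-11 (WBGene00001073) rose by 2.47 ± 0.13 log2. Footprints of pdi-2 (WBGene00003963), a subunit of collagen prolyl hydroxylase, stood at 8116 CPM (24 h) and 8152 CPM (32 h), against 2628 CPM at 22 h and 3333 CPM at 30 h (1.46 ± 0.12 log2, edgeR adjusted p = 5.45e-05). The peroxidase mlt-7 (WBGene00022743), which cross-links cuticle proteins, was switched off, at 68.6 CPM (24 h) and 51.1 CPM (32 h), against 636 CPM at 22 h and 505 CPM at 30 h. Another peroxidase, skpo-2 (WBGene00015841), fell by 2.70 log2.

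Genes of the secretory route had small positive changes. On the list of endoplasmic reticulum entry, folding and vesicle genes 3 of 28 were called higher (10.7%, beside 4.77% of all tested genes) and 0 lower. Its medians were 0.47 log2 from 30 h to 32 h and 0.49 log2 from 22 h to 24 h, beside 0.02 and 0.00 log2 for all tested genes. Positive changes in both repeats were seen in 26 of the 28, and 18 had an edgeR adjusted p under 0.05, most of them under the size required for a call. The 3 were the disulphide isomerases pdi-2 and pdi-1 (WBGene00003962, 1.26 ± 0.11 log2) and dnj-27 (WBGene00001045, 1.17 ± 0.13 log2), a chaperone with thioredoxin domains.

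Lists of hedgehog-related ligands, patched-related genes and astacin proteases went both ways. Of 45 tested hedgehog-related ligands 11 rose, 2 of them switched on, and 15 fell, 5 of them switched off, or 24.4% and 33.3%, beside 4.77% and 6.39% of all tested genes. Their median changes were 0.18 log2 from 30 h to 32 h and -0.10 log2 from 22 h to 24 h. The warthog genes wrt-10 (WBGene00006956) and wrt-2 (WBGene00006948) were switched on, the first to 1126 CPM at 24 h and 761.9 CPM at 32 h, against 25.7 CPM at 22 h and 30.6 CPM at 30 h. The groundhog genes grd-6 and grd-14 were among those switched off. Footprints of grd-6 (WBGene00001695) fell to 5.93 CPM at 24 h and 6.57 CPM at 32 h, against 237 CPM at 22 h and 275 CPM at 30 h (-5.35 ± 0.15 log2, edgeR adjusted p = 4.5e-07). Those of grd-14 (WBGene00001703) fell to 8.35 CPM at 24 h and 8.48 CPM at 32 h, against 305 CPM at 22 h and 302 CPM at 30 h. In both genes the values of the repeats nearly coincide on each side of the step.

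Of 27 patched-related genes, which resemble the hedgehog receptor, 7 rose (25.9%, beside 4.77% of all tested genes) and 8 fell (29.6%, beside 6.39% of all), with 3 switched on and 2 off. Their medians were -0.04 log2 from 30 h to 32 h and -0.35 log2 from 22 h to 24 h. Switched on were ptr-4 (WBGene00004219) at 3.65 ± 0.15 log2, ptr-10 (WBGene00004224) at 4.14 ± 0.17 log2 and ptr-15, and switched off were ptr-3 (WBGene00004218) at -3.56 ± 0.18 log2 and ptr-20.

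Astacin metalloproteases mostly fell, with 15 of 27 lower (55.6%, beside 6.39% of all tested genes), 6 of them switched off. Higher were 2 of the 27 (7.41%, beside 4.77% of all). Their medians were -1.25 log2 from 30 h to 32 h and -1.70 log2 from 22 h to 24 h. The astacin nas-38 (WBGene00003554) fell to 3.35 CPM at 24 h and 1.87 CPM at 32 h, against 122 CPM at 22 h and 45.5 CPM at 30 h, and nas-7 (WBGene00003526) fell by 4.80 log2. A pair of astacins of the moulting list, picked here after their values were seen, moved apart. The ecdysis protease nas-37 (WBGene00003553) was switched on, at 94.7 CPM (24 h) and 62.7 CPM (32 h), against 9.73 CPM at 22 h and 7.19 CPM at 30 h. The protease nas-36 (WBGene00003552) was switched off, at 2.58 CPM (24 h) and 3.42 CPM (32 h), against 38.5 CPM at 22 h and 31.4 CPM at 30 h.

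Of 23 moulting genes 10 rose (43.5%), 5 of them switched on, and 3 fell, 1 of them switched off, with medians of 0.62 log2 from 30 h to 32 h and 1.20 log2 from 22 h to 24 h. The largest rise of that list was that of mltn-1 (WBGene00009311), at 16.4 CPM (24 h) and 10.7 CPM (32 h), against 0.213 CPM at 22 h and 0.420 CPM at 30 h. Cuticlins, insoluble proteins of the cuticle, had 4 of 28 higher (14.3%, beside 4.77% of all) and 8 lower (28.6%, beside 6.39% of all). Their medians were -0.24 and -0.34 log2 in the same order of repeats. The cuticlin cut-2 (WBGene00009983) was switched off, at 141 CPM (24 h) and 69.7 CPM (32 h), against 2746 CPM at 22 h and 1395 CPM at 30 h.

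The pharyngeal lining gave many of the falls. Of 25 tested genes of the abu and pqn families, prion-like proteins of the pharyngeal cuticle, 18 were called lower, 12 of them switched off, and 0 higher. The share called lower was 72.0%, beside 6.39% of all tested genes. The median change was -4.26 log2 from 30 h to 32 h and -4.06 log2 from 22 h to 24 h, beside 0.02 and 0.00 log2 for all tested genes. Of 45 tested disordered proteins of the same lining 35 were lower (77.8%), 14 of them switched off, and 1 higher (2.22%, beside 4.77% of all tested genes). Their medians were -3.24 and -3.88 log2 in the same order of repeats. Members of these families resemble each other closely, and since nothing used here says where footprints that match several copies were counted, the values of single members are uncertain.

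Footprints of abu-10 (WBGene00000033) fell to 1.92 CPM at 24 h and 1.32 CPM at 32 h, against 84.5 CPM at 22 h and 65.9 CPM at 30 h (-5.54 ± 0.18 log2, edgeR adjusted p = 4.5e-07). The related abu-11 (WBGene00000034) fell to 1.98 CPM at 24 h and 1.96 CPM at 32 h, against 86.7 CPM at 22 h and 78.7 CPM at 30 h. For abu-8 (WBGene00000031) the level was 2.58 CPM at 24 h and 1.69 CPM at 32 h, against 97.6 CPM at 22 h and 68.3 CPM at 30 h. In all 3 the later libraries were at most at 2.58 CPM and the earlier ones at least at 65.9 CPM. The gene pqn-54 (WBGene00004139) changed by -5.20 ± 0.18 log2.

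Among the disordered proteins idpc-7 (WBGene00011537) fell to 1.98 CPM at 24 h and 2.098 CPM at 32 h, against 93.9 CPM at 22 h and 76.9 CPM at 30 h. Others of this family, idpc-2 (WBGene00018292), idpc-4 (WBGene00077691) and idpc-6 (WBGene00011536), changed by -5.28, -5.22 and -5.46 log2. In the annotation pqn-63, idpc-7, idpc-6, idpc-5 and idpc-4 lie in 1 run of 5 switched-off genes. Of the 157 switched-off genes found in the annotation 19 (12.1%) had a neighbour switched the same way, and 1.72% of tested genes had a switched-off neighbour. The exception among the disordered proteins was idpp-1 (WBGene00020550), which was switched on, at 194 CPM (24 h) and 147 CPM (32 h), against 3.34 CPM at 22 h and 3.78 CPM at 30 h (5.58 ± 0.19 log2, edgeR adjusted p = 5.34e-07).

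Lists of other parts of the pharynx had smaller median changes. Of 8 pharyngeal gland genes 4 were called lower, beside 6.39% of all tested genes, and 0 higher, beside 4.77% of all. Their medians were -0.53 log2 from 30 h to 32 h and -0.70 log2 from 22 h to 24 h. Switched off were 2 of the 4, phat-2 (WBGene00016733), at -3.59 ± 0.14 log2, and its neighbour phat-1 (WBGene00016732), at -3.36 ± 0.23 log2. Of 8 pharyngeal muscle genes 1 fell (12.5%, beside 6.39% of all), marg-1 (WBGene00018538), at -1.53 ± 0.16 log2. The pharyngeal myosin myo-2 (WBGene00003514) changed by -0.53 ± 0.13 log2 (edgeR adjusted p = 0.0164), under the size required for a call.

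**Figure D3:**
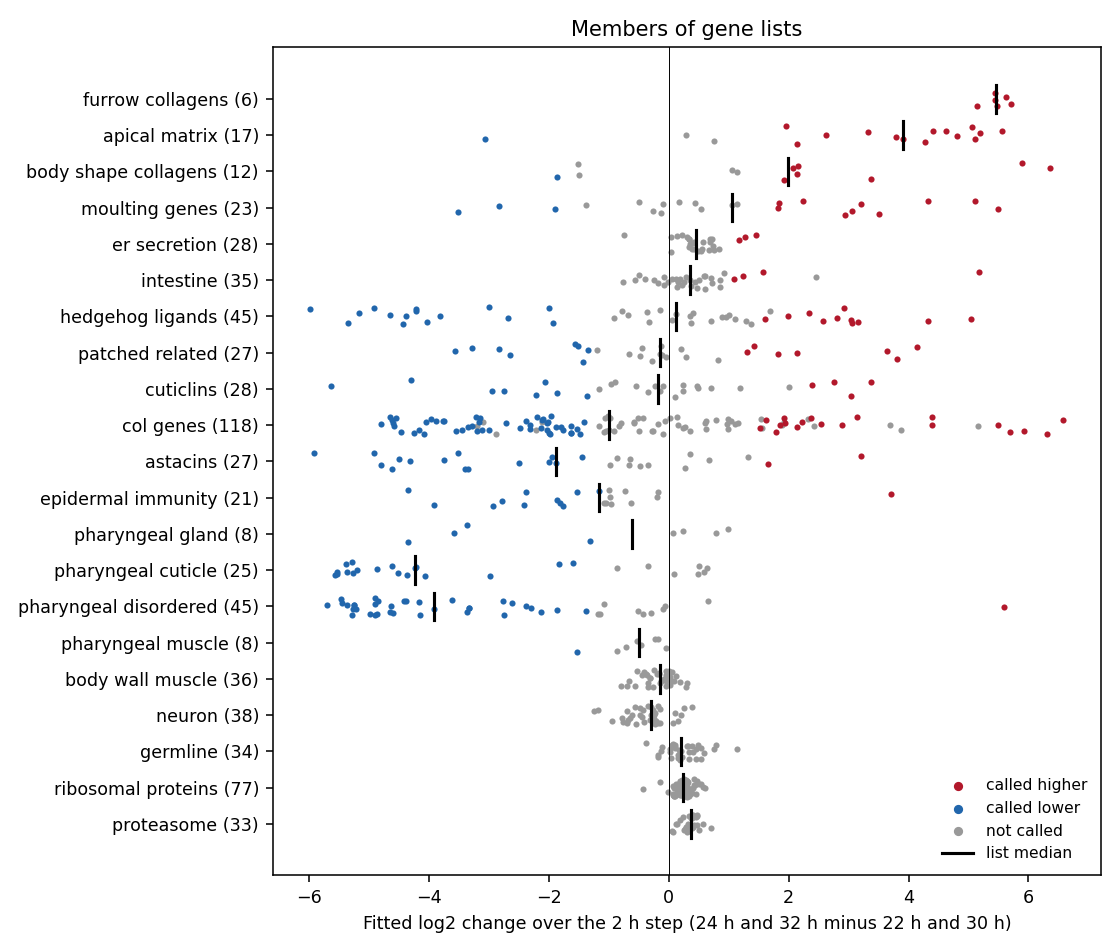
Fitted log2 change over the step (24 h and 32 h minus 22 h and 30 h) of each tested member of 21 gene lists, with the number tested in brackets and the list median as a black bar. Furrow collagens (median 5.46) and the apical matrix (3.91) lie to the right and the lists of pharyngeal lining proteins (-4.24 and -3.92) to the left. The muscle, neuron, germline, ribosomal protein and proteasome lists lie nearer 0, with medians from -0.50 (pharyngeal muscle) to 0.36 (proteasome).

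Several other genes were among the largest falls. The tyrosinase-related tyr-2 (WBGene00010661) fell to 40.8 CPM at 24 h and 38.8 CPM at 32 h, against 1334 CPM at 22 h and 884 CPM at 30 h. The cation-transporting ATPase gene catp-3 (WBGene00015660) fell to 110 CPM at 24 h and 57.8 CPM at 32 h, against 1566 CPM at 22 h and 585 CPM at 30 h. The genes dct-5 (WBGene00017218) and nspb-6 (WBGene00019152), the second from a family of similar short peptides, changed by -5.36 ± 0.17 and -5.35 ± 0.21 log2.

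Antimicrobial and innate immune genes of the epidermis fell more often than they rose. Of 21 tested 11 were called lower (52.4%, beside 6.39% of all tested genes) and 1 higher (4.76%, beside 4.77% of all). The medians were -1.02 log2 from 30 h to 32 h and -1.73 log2 from 22 h to 24 h. The neuropeptide-like nlp-24 (WBGene00003762) fell to 114 CPM at 24 h and 105 CPM at 32 h, against 1005 CPM at 22 h and 572 CPM at 30 h, and nlp-34 (WBGene00015046) fell by 2.94 log2. The caenacin cnc-3 (WBGene00000557) was switched on, at 23.9 CPM (24 h) and 15.8 CPM (32 h), against 2.17 CPM at 22 h and 0.893 CPM at 30 h.

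Of 3 large families, the C-type lectin-like genes, detoxification enzymes and nuclear hormone receptors, 2.26% to 9.09% of members were called higher (4.77% of all tested genes) and 3.39% to 7.69% lower (6.39% of all). Of 102 C-type lectin-like genes 7 rose and 5 fell, and 2 were switched on, clec-180 (WBGene00017991) at 4.53 ± 0.20 log2 and clec-225 (WBGene00007152) at 4.56 ± 0.17 log2. Of 143 detoxification enzymes 13 rose and 11 fell, with cyp-23A1 (WBGene00015135), a cytochrome P450, switched on at 3.28 ± 0.21 log2. Of 177 nuclear hormone receptors 4 rose and 6 fell. Of 13 protease inhibitors 1 rose, mlt-11 (7.69%), and 3 fell (23.1%).

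Genes of most other tissues and of growth were not called. None of 36 body-wall muscle, 38 neuron, 34 germline, 77 ribosomal protein, 33 proteasome, 43 cell cycle and 32 histone genes was called in either direction. Their list medians lay between -0.39 and 0.36 log2 from 30 h to 32 h and between -0.42 and 0.56 log2 from 22 h to 24 h. Small changes in 1 direction were common within some of these lists. In both repeats 31 of 33 proteasome genes rose (0 fell), as did 62 of 77 ribosomal protein genes (2 fell). Of 38 neuron genes 32 fell in both repeats and 4 rose, and of 36 body-wall muscle genes 23 fell and 8 rose. The myosin unc-54 (WBGene00006789) stood at 5464 CPM (24 h) and 7926 CPM (32 h), against 8719 CPM at 22 h and 8129 CPM at 30 h. The ribosomal protein gene rla-0 (WBGene00004408) changed by 0.41 ± 0.11 log2 and the proteasome subunit rpn-1 (WBGene00004458) by 0.32 ± 0.12 log2. Markers of these tissues were thus measured on both sides of the step, and each moved by less than the call required or missed the adjusted p.

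Of 35 intestinal genes 4 rose (11.4%, beside 4.77% of all tested genes) and 0 fell, with medians of 0.37 log2 from 30 h to 32 h and 0.24 log2 from 22 h to 24 h. The cathepsin B-like protease genes cpr-4 (WBGene00000784) and cpr-5 (WBGene00000785) rose by 1.56 ± 0.11 and 1.08 ± 0.11 log2. Footprints of cpr-4 were at 1943 CPM (24 h) and 2663 CPM (32 h), against 637 CPM at 22 h and 928 CPM at 30 h. The other two were cpl-1 and the yolk protein gene vit-2 (WBGene00006926). The call of vit-2 rests on the second repeat, with 33.7 CPM at 32 h, against 0.840 CPM at 30 h, and 0.165 CPM at 24 h, against 0.0355 CPM at 22 h. Its fitted change of 5.17 log2 became -1.35 log2 without the 32 h library, where 24 h is set against 22 h and 30 h together. The abundant protease gene asp-1 (WBGene00000214) changed by 0.60 ± 0.13 log2 and was not called.

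Among 28 regulators of moulting and larval timing 8 rose, 1 of them switched on (28.6% higher, beside 4.77% of all tested genes), and 1 fell (3.57%, beside 6.39% of all). The list's medians were 0.14 log2 from 30 h to 32 h and 0.17 log2 from 22 h to 24 h. The bZIP factor atf-8 (WBGene00017535) had the largest change of the list, at 61.2 CPM (24 h) and 31.8 CPM (32 h), against 0.639 CPM at 22 h and 1.31 CPM at 30 h (5.61 ± 0.51 log2, edgeR adjusted p = 0.00423). The nuclear receptor nhr-74 (WBGene00003664) rose by 3.48 ± 0.24 log2 but reached only 6.66 CPM at 32 h, under the level set for switched genes. The pharyngeal enhancer-binding factor peb-1 (WBGene00003968) rose to 55.4 CPM at 24 h and 50.3 CPM at 32 h, against 6.96 CPM at 22 h and 8.09 CPM at 30 h.

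Grainyhead, grh-1 (WBGene00001707), rose to 81.0 CPM at 24 h and 39.8 CPM at 32 h, against 11.6 CPM at 22 h and 8.45 CPM at 30 h (2.53 ± 0.17 log2, edgeR adjusted p = 1.97e-05). The period relative lin-42 (WBGene00018572) rose to 215 CPM at 24 h and 130.7 CPM at 32 h, against 31.5 CPM at 22 h and 30.7 CPM at 30 h. The receptor nhr-91 (WBGene00003681), the membrane-bound factor myrf-1 (WBGene00004134) and the zinc finger gene lin-29 (WBGene00003015), which acts at the larval-to-adult switch, rose by 1.58, 1.29 and 1.46 log2. The value of nhr-91 was 1.05 log2 without the 24 h library. For lin-29 the level was 24.6 CPM at 32 h, against 9.92 CPM at 30 h, and 3.90 CPM at 24 h, against 1.17 CPM at 22 h. Its fitted change became -0.49 log2 without the 32 h library, where 24 h is set against 22 h and 30 h together.

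The nuclear receptor nhr-25 (WBGene00003623) fell to 11.7 CPM at 24 h and 4.29 CPM at 32 h, against 24.7 CPM at 22 h and 18.9 CPM at 30 h (-1.57 ± 0.27 log2, edgeR adjusted p = 0.00617). Leaving out 1 library moved its change to between -2.43 log2 (no 24 h library) and -0.84 log2 (no 32 h library), and it was not called in any of these fits. The receptor nhr-23 (WBGene00003622), which drives moulting genes, was higher after each step, at 69.0 CPM (24 h) and 62.5 CPM (32 h), against 28.4 CPM at 22 h and 37.9 CPM at 30 h. Its change of 0.72 log2 in the second repeat was under the size required, so it was not called, although its edgeR adjusted p was 0.0025. The receptor nhr-85 (WBGene00003675) changed by -0.86 ± 0.12 log2, blmp-1 (WBGene00003847) by 0.37 ± 0.12 log2 and bed-3 (WBGene00009133) by 0.02 ± 0.28 log2, and none of these was called.

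**Figure D4:**
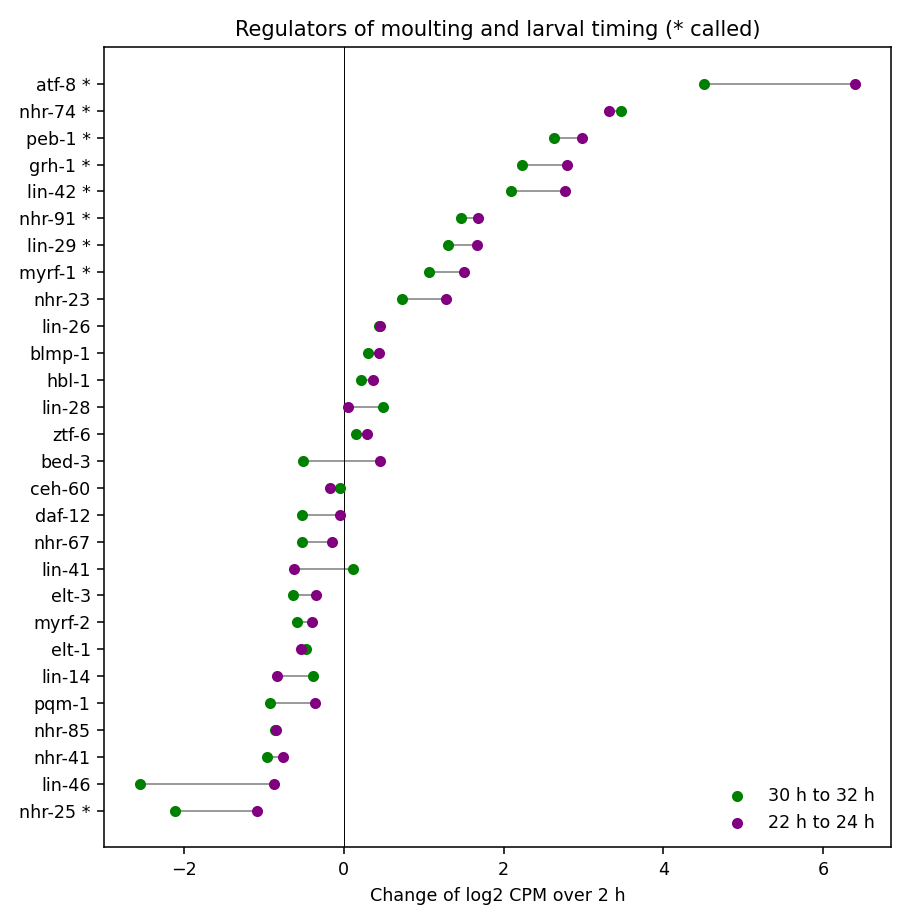
Change of log2 CPM over 2 h of 28 regulators from 30 h to 32 h (green) and from 22 h to 24 h (purple), ordered by the fitted change, with called genes starred. The bZIP gene atf-8 leads at 4.51 and 6.40 log2, and nhr-25 is the called gene at the bottom, at -2.11 and -1.08 log2.

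The changes of the switched genes ran from just past 3 log2 to over 6 log2. The genes switched on had a median change of 4.12 log2 from 30 h to 32 h and 4.65 log2 from 22 h to 24 h, and 50 of 99 moved by at least 4 log2 and 8 by at least 5 log2 in both repeats. Those switched off had medians of -4.27 and -4.48 log2 in the same order, with 93 of 158 past 4 log2 and 17 past 5 log2. On the low side 9 of the genes switched on and 27 of those switched off were at 1 CPM or less in both repeats, and none was at 0 counts in either. Together the genes switched on took 4.59% of counts at 24 h and 3.20% at 32 h, against 0.190% at 22 h and 0.198% at 30 h. The genes switched off took 0.219% at 24 h and 0.248% at 32 h, against 4.71% at 22 h and 4.62% at 30 h.

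Values near the threshold of 3 log2 did not mark a break. Among called genes with a class name, the one just inside on the rising side was hpo-36 (WBGene00020855), whose smaller change was 3.05 log2. The one just outside was znf-782 (WBGene00021931), at 2.99 log2. On the falling side, again among those with a class name, ptr-20 (WBGene00004234) was just inside at -3.02 log2 and the collagen col-39 (WBGene00000616) just outside at -2.97 log2. The level of col-39 was 231 CPM at 24 h and 564 CPM at 32 h, against 2382 CPM at 22 h and 4427 CPM at 30 h.

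The repeats differed in size more for the genes switched on. Of these, 13 changed more in the second repeat and 86 in the first, with a median difference, second minus first, of -0.58 log2. Of the genes switched off 56 fell more in the second repeat and 102 in the first, with a median difference of 0.16 log2. By size alone, at least 3 log2 and 10 CPM, 132 genes went on from 30 h to 32 h and 136 from 22 h to 24 h, of which 99 were shared, or 75.0% and 72.8% of the sets. In the other direction 167 genes went off from 30 h to 32 h and 210 from 22 h to 24 h, of which 158 were shared, or 94.6% and 75.2%.

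A group of genes went on in the second repeat alone. With at least 3 log2 from 30 h to 32 h but under 1 log2 from 22 h to 24 h there were 20 genes, and 0 genes went on in the first repeat alone by the same measure. They were listed after their values were seen. Major sperm protein genes made up 8 of them (msp-31, msp-36, msp-40, msp-50, msp-64, msp-76, msp-77 and msp-142), and msd-4, ssq-1, nspd-2 and the yolk protein gene vit-1 were others. The collagen genes col-71 and col-138 and rol-1 belong here too. All 20 stood at 1.92 CPM or less at 22 h and 24 h, 8 of them at 0 counts in both, and all 20 were higher still at 34 h than at 32 h. The sperm genes are near-identical copies, so their single values are uncertain. As an example msp-64 was at 29.7 CPM at 32 h, against 3.10 CPM at 30 h, and rol-1 was at 38.1 CPM at 32 h, against 0.735 CPM at 30 h. The 1 gene that went off in the second repeat alone was the collagen col-90, at 49.9 CPM at 32 h, against 784 CPM at 30 h, and at 371 CPM at 24 h, against 527 CPM at 22 h.

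The 6 libraries that the choice of members did not use gave most of the same genes a repeated direction, at heights that differed between cycles. The median gene switched on stood at 100%, 67.4% and 67.4% of its own highest level at 18 h, 26 h and 34 h. At 20 h, 28 h and 36 h it stood at 19.7%, 4.32% and 6.36%. All 99 were at least 1 log2 higher at 26 h than at 28 h (6.36% of all tested genes were). At 34 h against 36 h this held for 94 of 99 (6.59% of all), and at 18 h against 20 h for 78 (6.71% of all). The median differences were 3.73, 3.35 and 2.08 log2 in that order.

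The genes switched off ran the other way in those libraries. At 28 h against 26 h, 154 of 158 were higher by at least 1 log2, compared with 9.38% of all tested genes, at 36 h against 34 h 137 (6.66% of all), and at 20 h against 18 h 145 (7.54% of all). Their median differences were 3.82, 2.91 and 5.01 log2. The median gene of this set stood at 27.4%, 88.2% and 35.9% of its own highest level at 20 h, 28 h and 36 h. At 18 h, 26 h and 34 h it stood at 0.684%, 4.15% and 3.11%.

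Within both sets the courses beside the step varied. From 24 h to 26 h and from 32 h to 34 h, 25 of the genes switched on rose by at least 1 log2 again in both repeats and 11 fell by as much. The fibrillin-related fbn-1 (WBGene00022816) was a brief one, at 118, 2216 and 284 CPM at 22, 24 and 26 h, and again at 201, 2074 and 209 CPM at 30, 32 and 34 h. The lectin gene clec-180 went on rising, with 10.9, 320 and 855 CPM at 22, 24 and 26 h. The furrow collagen dpy-7 changed by only 0.44 log2 from 32 h to 34 h and 0.17 log2 from 24 h to 26 h.

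Before the step 31 of the genes switched off had risen by at least 1 log2 from 20 h to 22 h and from 28 h to 30 h, and 29 had already fallen by as much. The median gene switched off moved in opposite directions before the repeats. It changed by 1.12 log2 from 20 h to 22 h, and 108 of the 158 genes were higher at 22 h. From 28 h to 30 h it changed by -0.65 log2, and 55 genes were higher at 30 h. The reason for this difference was not tested. A late riser was tyr-2, at 1334 CPM at 22 h, against 38.8 CPM at 20 h, and at 884 CPM at 30 h, against 393 CPM at 28 h. An early one was cut-2, at 2746 CPM at 22 h, against 10140 CPM at 20 h, and at 1395 CPM at 30 h, against 8655 CPM at 28 h.

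**Figure D5:**
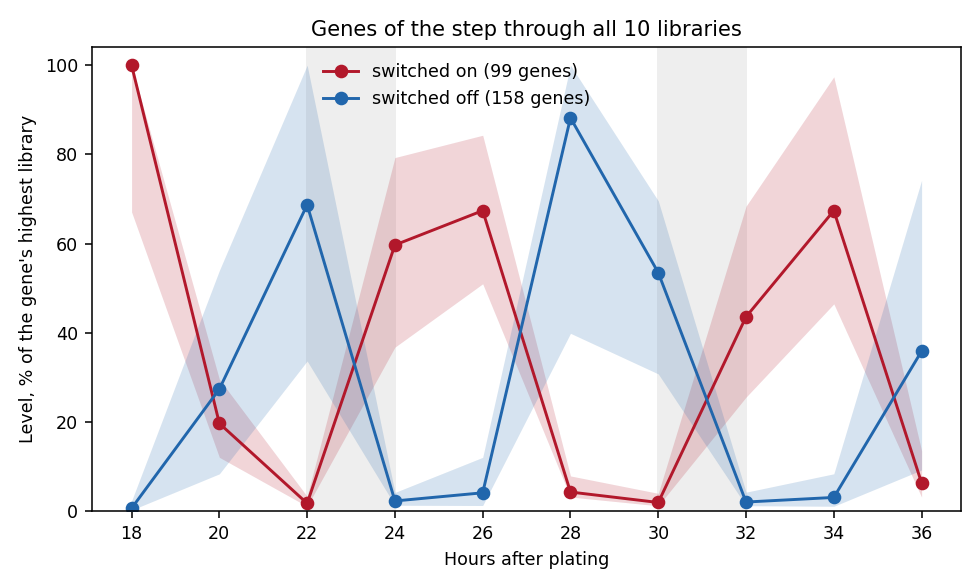
Median level of the 99 genes switched on (red) and the 158 switched off (blue) in each of the 10 libraries, as a percent of each gene's highest library, with the shaded colour spanning the middle 50% of genes and the grey bands marking the 2 h steps. The set switched on is lowest at 22 h (1.78%) and 30 h (1.98%), and the set switched off is low at 24 h (2.32%) and 32 h (2.08%); these 4 libraries were used to choose the genes.

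The other 2 h steps of the cycle share libraries with this one, so their counts are given side by side only. By size alone in both repeats, among the same 13132 genes, 92 genes went on and 20 off in the step from 18 h and 26 h, 51 and 127 in the step from 20 h and 28 h, 99 and 158 in the step from 22 h and 30 h, and 134 and 36 in the step from 24 h and 32 h.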

How the data were processed

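Whole N2 worms were sampled once at each of 10 times, and 4 libraries (24 h and 32 h, 22 h and 30 h) were compared here. Per the labels' protocols, protected RNA was isolated from monosomes by size on a gel. The submitters' processing notes name Bowtie. No source used here gives its version, the genome build, the annotation or the counting rule. The authors deposited raw footprint counts for each gene, with no scaling per the file headers; their normalized values were not used. Which barcode each library carried is not given, so no batch could be looked at.

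Symbols and neighbours came from Ensembl 115 (WBcel235), which held 18772 of 20182 identifiers as protein-coding genes. Genes were tested where at least 2 of the 4 libraries passed the CPM that 10 counts give in the median library. TMM factors came from all 10 libraries (1.09 and 0.993 at 24 h and 32 h, 1.17 and 1.10 at 22 h and 30 h). The edgeR 4.0.16 quasi-likelihood fit (R 4.3.3, robust) held the step and the pair of libraries 2 h apart as a block, with 1 residual degree of freedom, a median of 7.75 prior degrees of freedom and a common biological coefficient of variation of 0.126. The pairs follow from the times. P-values were adjusted by the Benjamini-Hochberg method. Changes per repeat are differences of log2 CPM with a prior count of 2. Errors are standard errors of the fit, and n is 2 pairs. The script was tested on simulated data. DESeq2 1.42.0, limma 3.58.1, other scalings, filters, thresholds, fits without the pair or with all 10 libraries, thinned counts and leaving out each library were tried.

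Genes were named by rule: the largest and most abundant switched genes with a class name, from each of 30 lists its most abundant member and at most 3 called members, all regulators, the 5 largest opposite changes and the genes beside the threshold. Not all are printed. The members and lists were chosen with earlier results of these data known.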

Additional observations from a re-analysis of the deposited data

Results flagged for a closer look

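The 5 genes below moved in opposite directions in the repeats by the largest amounts among genes reaching 10 CPM, and in each case the difference was not tested. From 30 h to 32 h pes-8 changed by 3.97 log2, and from 22 h to 24 h by -2.36 log2, on 11.9 CPM at 32 h, against 0.682 CPM at 30 h, and 0 CPM at 24 h, against 0.355 CPM at 22 h. The collagen col-2 changed by 1.65 log2 in the second repeat and by -1.13 log2 in the first, where it had 3 counts at 24 h, against 13 counts at 22 h. The sperm gene smz-1 changed by 1.80 and -1.09 log2 in the same order, with 41.2 CPM at 32 h, against 11.8 CPM at 30 h. Its fall in the first repeat was 1 count at 24 h, against 6 counts at 22 h. The first-repeat falls of pes-8 (0 counts at 24 h, against 10 counts at 22 h), col-2 and smz-1 thus rest on very few counts. The acyltransferase-like oac-29 changed by -1.24 log2 in the second repeat and by 1.00 log2 in the first, and fog-1, a gene of sperm fate, by -1.16 and 0.87 log2. Levels of fog-1 were 7.66 CPM at 32 h, against 17.2 CPM at 30 h, and 19.3 CPM at 24 h, against 10.5 CPM at 22 h. Of all tested genes 40 moved by at least 1 log2 in opposite directions, and 36 of these rose in the second repeat.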

How the results depend on the processing

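With TMM replaced by RLE factors or total counts, other filters, DESeq2, limma, a prior count of 8, thinned counts or the newer edgeR method, all 4 counts stayed within 1.5 times. Total counts moved the median of all genes to -0.13 log2 from 30 h to 32 h and -0.10 log2 from 22 h to 24 h, and 36.1% of calls were then higher, against 42.7%. Without the replicate block 274 genes were higher and 405 lower, and with all 10 libraries 529 lower. With no minimum change 1760 were higher and 1821 lower. At 2 log2, 172 were switched on and 244 off, at 4 log2 50 and 93, and with 50 CPM on the high side 57 and 77. Leaving out 1 library, in 3-library fits or, as chosen after seeing the data, in the 10-library fit, gave 0 to 299 higher, 0 to 372 lower, 0 to 129 switched on and 0 to 152 off. Those counts used another size rule, set on the fitted change and on the direction of the pair left whole rather than on each repeat. They also had fewer libraries and, in the 3-library fits, no pair term. The cause of the differences was not tested. Of 94 genes named by rule and printed with values, 80 were called. Under settings that kept all 4 libraries the direction turned only for bed-3, pes-8, oac-29 and fog-1, none of them called. In the 3-library fit without the 32 h library the called bli-1, vit-2 and lin-29 turned, as did col-2 and smz-1, which were not called. That fit sets 24 h against 22 h and 30 h together. Within the pairs bli-1, vit-2 and lin-29 rose in both repeats. The change of bed-3 became -0.10 (total counts), -0.0105 (DESeq2) and -0.0286 log2 (limma), that of pes-8 -0.51 (DESeq2), that of oac-29 0.33 (no replicate block), 0.32 (all 10 libraries), 0.00407 (thinned) and 0.0199 (newer edgeR method), and that of fog-1 0.28 log2 (all 10 libraries). Leaving out 1 library gave -0.88 to 0.74 log2 for bed-3, -1.78 to 1.39 for oac-29, -1.86 to 1.36 for fog-1, -6.51 to 4.53 for pes-8, -3.52 to 3.59 for col-2, -6.61 to 6.56 for smz-1, -1.35 to 11.33 for bli-1, -0.49 to 3.60 for lin-29 and -1.35 to 8.69 for vit-2.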
